A study of Homo sapiens with 8 samples.

Results

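Of 8 transcription factor genes of the prostate lineage, 7 were followed through 4 human prostate cancer cell lines with and without knockdown of DNA-PK, the kinase of DNA end joining. The 8 named genes were FOXA1, HOXB13, GATA2, GRHL2, NR3C1, SPDEF, TP63 and SOX9. Each of the 7 with a value had 1 probe set with a single gene symbol, out of 22109 genes with such a probe set, and all 7 lay above the filter on low signals. TP63 was not analysed here. The genes were named for their roles in the lineage, with no threshold on a measured value. This choice, like that of the gene lists below, was made with earlier results of these data known. Shares set beside those of all genes are therefore descriptive.

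The lines were C4-2B, a bone-tropic derivative of LNCaP, VCaP, from a vertebral metastasis, DU145, from a brain metastasis, and PC3, from a bone metastasis. Cells were transfected with non-targeting siRNAs (the controls) or with siRNAs against DNAPK and harvested 48 hours later, with 1 array for each treatment in each line and so 8 arrays in 4 pairs. C4-2B and PC3 were grown in RPMI1640 and DU145 and VCaP in DMEM, so the medium cannot be told apart from the line. Values are log2 signals made by RMA (robust multi-array average), and every response is the treated array minus the control array of its line on that scale. Levels are compared between arrays for 1 gene at a time, never between genes. A lower signal in such bulk RNA can come from fewer cells with the transcript or from less transcript per cell, and these cannot be told apart.

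Prostate epithelium is kept luminal by a small set of transcription factors. FOXA1 and GATA2 are pioneer factors that open chromatin for other factors, and HOXB13 is a posterior homeobox factor of the prostate. GRHL2 and SPDEF hold epithelial and secretory programs. NR3C1 encodes the glucocorticoid receptor, a steroid-activated transcription factor, while SOX9 and TP63 are known from progenitor and basal cells. C4-2B and VCaP are known as lines with luminal features, which DU145 and PC3 largely lack.

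The knockdown differed in depth between lines. PRKDC, which encodes the catalytic subunit of DNA-PK, kept 17.4% of its control signal in C4-2B, 25.1% in PC3, 47.2% in DU145 and 65.0% in VCaP, a mean of -1.56 on the log2 scale (limma adjusted p = 0.688). Of the known luminal markers, KLK2 went with the line names and KLK3 did not in VCaP. In controls KLK2, a luminal kallikrein gene, read 11.37 for VCaP and 10.70 for C4-2B against 3.94 in DU145 and 4.42 in PC3. KLK3 (PSA), in contrast, read 10.12 in C4-2B but 4.46 in VCaP, close to 3.84 in DU145 and 3.68 in PC3. Of markers of other cell types, 5 immune markers read between 1.30 and 3.09 and 5 stromal and endothelial markers between 1.38 and 5.06, where the filter level was 2.52. COL1A1, a collagen gene of that last list, was above the filter level on all 8 arrays. The 5 neuroendocrine markers read between 2.35 and 5.44. The VCaP control was the highest for 4 of them (28.2% of all genes tested), among them CHGA at 5.44, INSM1 at 5.25 and SYP at 4.50. ENO2 went the other way, at 4.17 in the VCaP control against 5.38 in that of PC3 and 4.85 in that of DU145. The part of these markers in the results on VCaP was not tested.

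Promoter sequence was at hand in RefSeq (GRCh38.p14) for 4 of the 7 genes, namely FOXA1, GATA2, NR3C1 and SPDEF. The 250 bases before the start are printed for the 2 of these with a single listed start, FOXA1 (minus strand, chr14:37595250-37595499) and SPDEF (minus strand, chr6:34556330-34556579), to show which words of the factors themselves stand there. Both run 5′ to 3′ on the gene's strand, and capitals mark matches to a forkhead word (TGTTTAC or TGTTTGC) or a SOX word (ACAAAG or ACAATG) on either strand.
FOXA1: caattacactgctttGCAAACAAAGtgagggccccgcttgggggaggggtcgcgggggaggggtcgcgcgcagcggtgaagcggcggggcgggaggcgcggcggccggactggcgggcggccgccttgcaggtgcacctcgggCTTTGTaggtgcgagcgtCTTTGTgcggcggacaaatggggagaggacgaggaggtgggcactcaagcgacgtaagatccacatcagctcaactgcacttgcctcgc
SPDEF: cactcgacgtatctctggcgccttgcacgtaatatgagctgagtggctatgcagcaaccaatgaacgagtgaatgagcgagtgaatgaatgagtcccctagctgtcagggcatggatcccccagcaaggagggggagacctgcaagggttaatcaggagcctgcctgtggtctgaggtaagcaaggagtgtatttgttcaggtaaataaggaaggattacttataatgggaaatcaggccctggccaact
The FOXA1 window held 1 forkhead match, 235 to 229 bases before the start, which overlaps a SOX match at 231 to 226. It held 2 more SOX matches nearer the start. Of 35116 promoter windows of this length, 6.09% hold such a forkhead word and 21.2% such a SOX word. SPDEF and both GATA2 starts held no match to these words or to the GATA word AGATAA, the grainyhead word AACCGGTT, the glucocorticoid receptor word AGAACA or the HOX13 words CCAATAAA and CTCGTAAA, which stand in 9.17%, 0.117%, 12.4% and 0.977% of windows. Of the 7 NR3C1 starts, 1 held a forkhead match and 1 a SOX match.

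The lines differed far more in these factors than treated cells differed from their controls. Over the 4 controls, the span from the lowest to the highest line was 2.19 for FOXA1, 5.93 for HOXB13, 3.76 for GATA2, 6.05 for GRHL2, 4.36 for NR3C1, 3.41 for SPDEF and 3.39 for SOX9. That span was 3.08 times the largest response of any line for NR3C1 and 18.8 times for GRHL2, with the other members in between. DU145 had the lowest control level for 6 of the 7 genes, where 24.3% of all 16581 genes tested were lowest in DU145. NR3C1 was the exception and was highest there. For SOX9 the DU145 control read 6.10 against 6.24 in C4-2B. Over both arrays of a line DU145 was not the lowest for SOX9 (mean 6.04 against 5.95 in C4-2B).

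**Figure D1:**
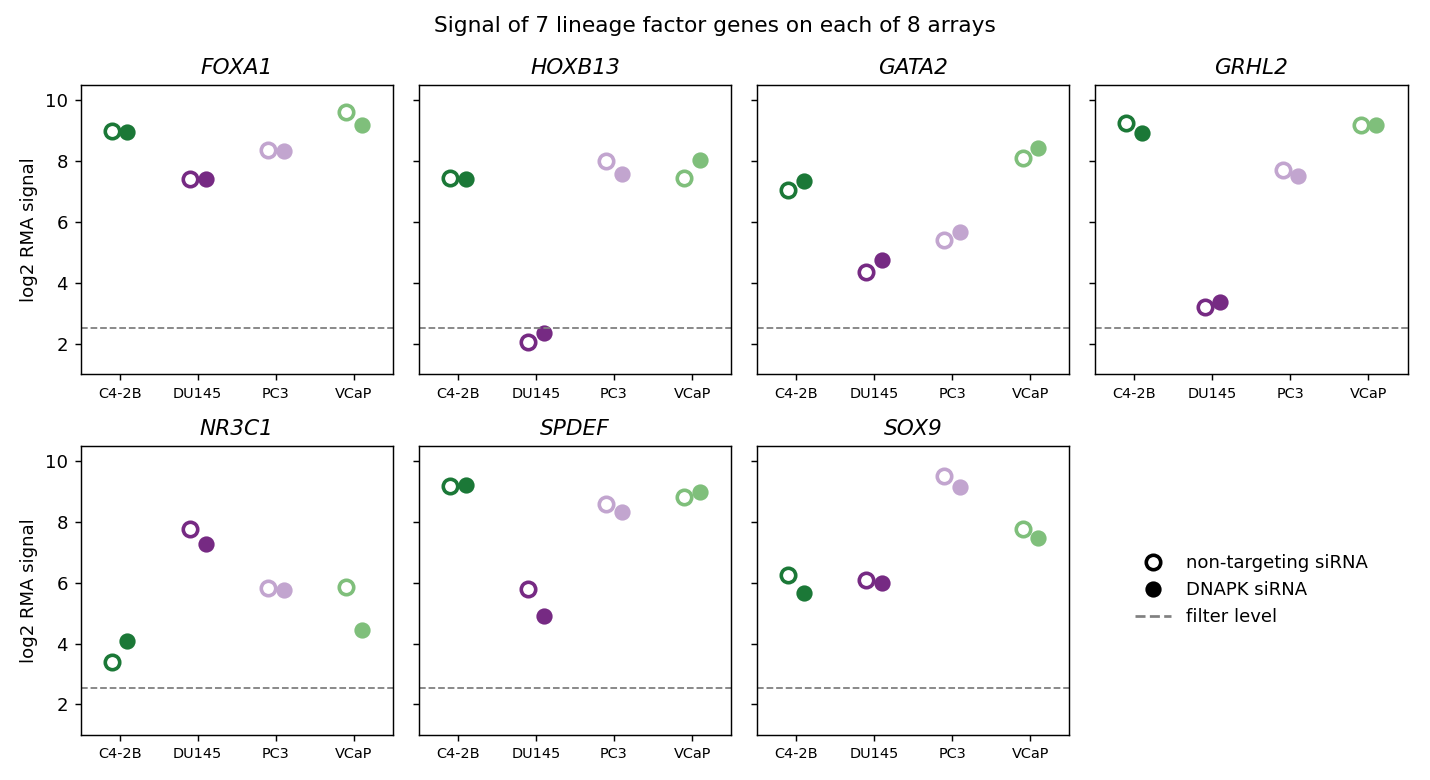
Log2 RMA signal of each of the 7 genes (vertical axis) in the 4 lines (horizontal axis), with open circles for non-targeting siRNA and filled circles for DNAPK siRNA, 1 array each, and a dashed line at the filter level of 2.52. DU145 lies at the bottom for HOXB13 and GRHL2 and at the top for NR3C1. The circles of a line mostly lie close together beside the span of the lines. In places, as for NR3C1 in VCaP and SPDEF in DU145, they lie further apart than the controls of some lines.

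Pairs of lines were compared over both arrays of a line with limma, with the treatment as a term and adjustment over all genes and the 6 line pairs together. The spread in this test is that between the arrays of 1 line, not between separate derivations of it. Of the 42 comparisons of the 7 genes, 32 passed at an adjusted p of 0.05, or 76.2%, where 36.7% of all comparisons passed. GATA2 differed in all 6 pairs. FOXA1, GRHL2, NR3C1 and SOX9 differed in 5 each, and HOXB13 and SPDEF in 3 each.

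FOXA1, the pioneer factor of the forkhead family, was present in every line. It read 8.99 with non-targeting and 8.94 with DNAPK siRNA in C4-2B, 9.59 and 9.19 in VCaP, 8.35 and 8.34 in PC3, and 7.41 and 7.41 in DU145. The order was VCaP, C4-2B, PC3 and DU145, and the arrays of different lines did not overlap. VCaP lay above C4-2B by 0.43 ± 0.17 (SE, 95% interval 0.02 to 0.83), which did not pass (limma adjusted p = 0.0924) but did with a trended variance prior (adjusted p = 0.0335). The step from C4-2B to PC3 was 0.62 ± 0.17 (SE, adjusted p = 0.0255) and that from PC3 to DU145 0.94 ± 0.17 (adjusted p = 0.00432).

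GATA2, the zinc finger pioneer factor, had the same order with wider steps. It read 8.11 and 8.43 in VCaP, 7.05 and 7.35 in C4-2B, 5.40 and 5.68 in PC3, and 4.35 and 4.76 in DU145, controls first. VCaP lay above C4-2B by 1.07 ± 0.15 (SE, limma adjusted p = 0.00125). C4-2B lay above PC3 by 1.66 ± 0.15 (adjusted p = 1.46e-04), and PC3 lay above DU145 by 0.99 ± 0.15 (adjusted p = 0.00180). No array of a line overlapped those of another.

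HOXB13, the posterior homeobox factor, split DU145 from the rest. It read 2.07 and 2.36 in DU145, below the filter level, against 7.43 and 7.41 in C4-2B, 8.0 and 7.58 in PC3, and 7.45 and 8.03 in VCaP. PC3 lay above DU145 by 5.58 ± 0.24 (SE, limma adjusted p = 5.14e-06). Both C4-2B arrays lay below those of PC3 and VCaP, which overlapped, but none of these 3 pairs passed, with differences of at most 0.37 (adjusted p from 0.280 to 0.898).

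GRHL2, a grainyhead factor that maintains epithelial junction genes, had the widest span. It read 9.25 and 8.92 in C4-2B, 9.17 and 9.17 in VCaP, 7.72 and 7.49 in PC3, and 3.19 and 3.36 in DU145. C4-2B and VCaP overlapped (difference 0.09, limma adjusted p = 0.744). PC3 lay 1.48 ± 0.18 (SE) below C4-2B (adjusted p = 5.82e-04), and DU145 lay a further 4.33 ± 0.18 below PC3 (adjusted p = 4.29e-06).

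SPDEF, an ETS factor of secretory cells, also stood apart in DU145. It read 9.19 and 9.21 in C4-2B, 8.80 and 8.98 in VCaP, 8.59 and 8.32 in PC3, and 5.78 and 4.89 in DU145. The DU145 arrays lay 3.12 ± 0.26 (SE) below those of PC3 (limma adjusted p = 9.35e-05). The gaps between the other 3 lines did not pass, the widest being 0.75 between C4-2B and PC3 (adjusted p = 0.0564). That gap passed under 3 alternative settings, with adjusted p from 0.0257 to 0.0425.

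NR3C1, the glucocorticoid receptor gene, ran against the others. It read 7.77 and 7.26 in DU145, 5.84 and 5.75 in PC3, 5.86 and 4.45 in VCaP, and 3.41 and 4.08 in C4-2B. DU145 lay above PC3 by 1.72 ± 0.42 (SE, limma adjusted p = 0.0146) and above C4-2B by 3.77 ± 0.42 (adjusted p = 3.82e-04). PC3 and VCaP overlapped and their difference of 0.64 did not pass (adjusted p = 0.280). VCaP lay above C4-2B by 1.41 ± 0.42 (adjusted p = 0.0322).

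SOX9, an HMG-box factor of prostate buds and progenitors, was highest in PC3. It read 9.49 and 9.15 there, 7.78 and 7.47 in VCaP, 6.10 and 5.99 in DU145, and 6.24 and 5.66 in C4-2B. PC3 lay above VCaP by 1.70 ± 0.17 (SE, limma adjusted p = 2.51e-04) and VCaP lay above DU145 by 1.58 ± 0.17 (adjusted p = 3.52e-04). DU145 and C4-2B overlapped (difference 0.09, adjusted p = 0.716).

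With the line as the replicate, the controls of C4-2B and VCaP were set against those of DU145 and PC3. FOXA1, GATA2, GRHL2 and SPDEF were higher in both lines of the first pair than in either of the second, 4 of 7 genes, where 20.5% of all genes had that order. HOXB13, NR3C1 and SOX9 overlapped between the pairs. GATA2 differed by 2.70 (95% limma interval 1.16 to 4.24, adjusted p = 0.267) and FOXA1 by 1.41 (0.16 to 2.67, adjusted p = 0.482). GRHL2 differed by 3.75 (-0.38 to 7.88, adjusted p = 0.580) and SPDEF by 1.81 (-0.84 to 4.46, adjusted p = 0.686). NR3C1 had -2.17 (-5.07 to 0.74, adjusted p = 0.653). HOXB13 had 2.40 and SOX9 -0.78 (adjusted p = 0.773 and 0.898). None of the 7 passed. The fit called 0 of 16581 genes (0%), with 1549 (9.34%) at an unadjusted p under 0.05, and 2 lines against 2 cannot give an exact permutation p below 0.333. Single lines carried several of these values. Without DU145, HOXB13 had -0.56, GRHL2 1.49, SPDEF 0.41, FOXA1 0.94, NR3C1 -1.20 and SOX9 -2.48. Without PC3, HOXB13 had 5.37, GRHL2 6.01, SPDEF 3.21 and SOX9 0.91. NR3C1 had -0.94 without C4-2B and -3.40 without VCaP.

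**Figure D2:**
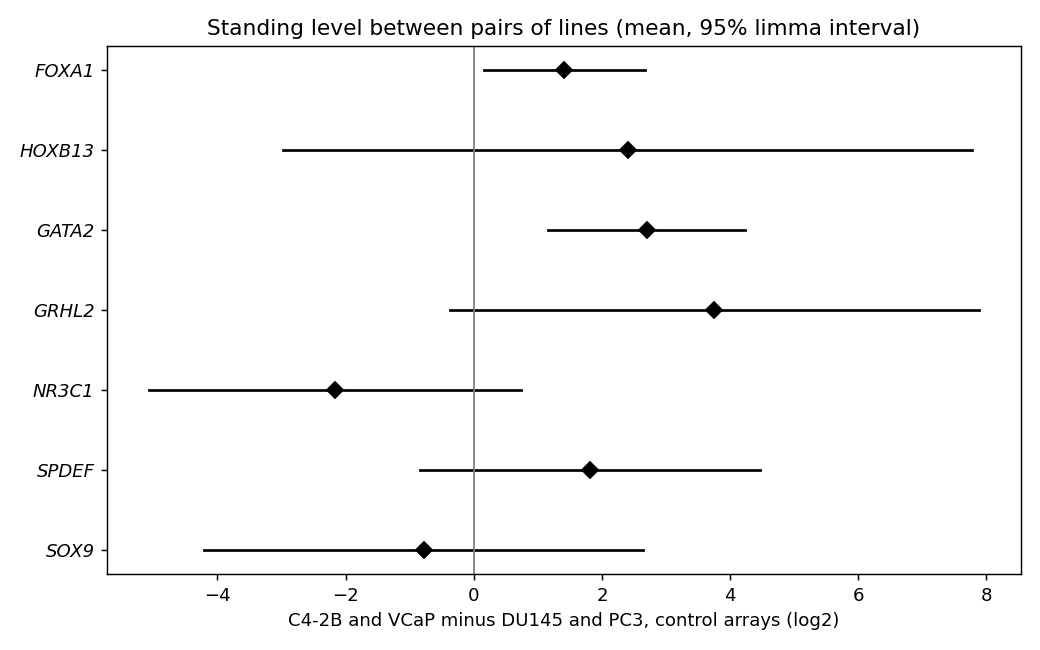
Mean control level of C4-2B and VCaP minus that of DU145 and PC3 on the log2 scale (horizontal axis) for each gene, with the 95% limma interval over 4 lines as a bar. The intervals of FOXA1 and GATA2 lie above 0 and the other 5 include 0.

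Genes known to depend on these factors were read in the same lines. Of 18 epithelial genes tied to GRHL2, 15 had their lowest control level in DU145 (24.3% of all genes tested). Of these 18, 15 were higher in C4-2B than in DU145 by the test and 0 lower (17.4% and 17.8% of all genes). Between DU145 and PC3, 11 were lower in DU145 and 0 higher (16.5% and 15.6%). The other lines differed in these genes too. Between C4-2B and VCaP, where GRHL2 itself did not pass, 7 were higher in C4-2B and 4 lower (18.3% and 17%). C4-2B was higher than PC3 for 7 and lower for 2 (17.8% and 18.7%). PC3 was higher than VCaP for 4 and lower for 7 (21.1% and 19.2%). PRSS8, a membrane serine protease gene, read 3.97 and 4.02 in DU145 and at least 6.67 on every other array. RAB25, a small GTPase of epithelial recycling, read 2.54 and 2.52 in DU145, 3.71 and 3.94 in PC3, 5.79 and 5.74 in VCaP and 7.11 and 7.33 in C4-2B. CDS1, a phospholipid synthesis gene, read 5.06 and 5.60 in DU145 and at least 7.03 elsewhere. The steps were small for the adhesion genes CDH1 (E-cadherin) and EPCAM, both named after their values were seen. Their DU145 controls read 9.21 and 8.84, against 9.37 and 9.0 in the next lowest line.

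Most luminal genes were higher in C4-2B and VCaP. Of 15 tested, 11 were higher in both C4-2B and VCaP controls than in DU145 and PC3 (20.5% of all genes), and the median difference between the pairs was 2.86, against 0.02 over all genes. Of the 15, 7 had their lowest control level in DU145 (24.3% of all genes), and 4 were lower in DU145 than in PC3 by the line-pair test and 0 higher (16.5% and 15.6%). By the fit over 4 lines 0 of 15 passed. KLK2 differed by 6.85 (limma adjusted p = 0.0690), TRPM8, a cation channel gene, by 4.85 (adjusted p = 0.0690) and TMPRSS2, a serine protease gene, by 4.85 (adjusted p = 0.467). TMPRSS2 was intermediate in PC3, at 6.72 and 7.17, and low in DU145, at 2.18 and 3.37, against at least 8.68 in C4-2B and VCaP. KRT8 and KRT18 read between 3.58 and 5.47 on all arrays. Their differences between the pairs were -0.25 and -0.50, opposite in sign to the list's median. Both keratin genes have many near-identical pseudogene copies, and any effect of these on the values was not tested.

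Targets of the glucocorticoid receptor did not share one order. Of 16 tested, 5 were highest in DU145 (23.4% of all genes), 6 in C4-2B (25.1%), 1 in VCaP (28.2%) and 4 in PC3 (23.3%). Between C4-2B and DU145, 5 passed as higher in DU145 and 5 as higher in C4-2B (17.8% and 17.4%). Between C4-2B and VCaP, 9 passed as higher in C4-2B and 0 as lower (18.3% and 17%), while NR3C1 itself was lower in C4-2B. DU145 was higher than PC3 for 5 and lower for 0 (15.6% and 16.5%), and higher than VCaP for 7 and lower for 2 (21.1% and 19.7%). C4-2B was higher than PC3 for 6 and lower for 3 (17.8% and 18.7%), and PC3 higher than VCaP for 5 and lower for 2 (21.1% and 19.2%). ERRFI1, a feedback inhibitor of EGFR, read 10.30 and 10.23 in DU145 and 9.71 and 9.76 in PC3, against 7.88 to 8.36 in C4-2B and VCaP. ZBTB16 and KLF9, zinc finger genes of the same list, went the other way. ZBTB16 read at least 6.22 in C4-2B and VCaP and at most 2.94 in DU145 and PC3. KLF9 read 6.16 and 6.22 in C4-2B, 5.84 and 5.07 in VCaP, 4.70 and 4.30 in DU145 and 2.80 and 2.77 in PC3.

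Basal genes tied to TP63 were mostly lower in C4-2B and VCaP. Of 14 tested, 9 were lower in both C4-2B and VCaP controls than in DU145 and PC3 (19.7% of all genes), and 0 of 14 passed the fit over 4 lines. ITGB4 (integrin beta 4) had a difference of -5.30, ITGA3 (integrin alpha 3) of -4.67 and CDH3 (P-cadherin) of -4.59 (limma adjusted p = 0.167, 0.0800 and 0.119). Of the basal keratin genes, KRT5 read 1.91 to 2.66 and KRT14 1.91 to 2.91 over the 8 arrays, while KRT15 read 5.39 and 4.47 in PC3 and at most 3.31 elsewhere. The desmosomal gene DSG3 read 1.74 to 2.03.

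Secretory genes tied to SPDEF were highest in PC3 in 6 of 9 cases (23.3% of all genes). TFF1, a trefoil peptide gene, read 9.30 and 8.99 in PC3 and at most 3.36 elsewhere. MUC5B, a gel-forming mucin gene, read 8.03 and 6.98 in PC3 and at most 3.33 elsewhere. CREB3L4, a membrane-bound transcription factor gene, instead read 6.88 and 6.73 in C4-2B and 6.37 and 6.54 in VCaP, against 4.95 to 5.23 in DU145 and PC3. Of 13 cartilage genes known as SOX9 targets, 8 passed the filter, and the highest signal of any of the 13 on any array was 4.94.

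**Figure D3:**
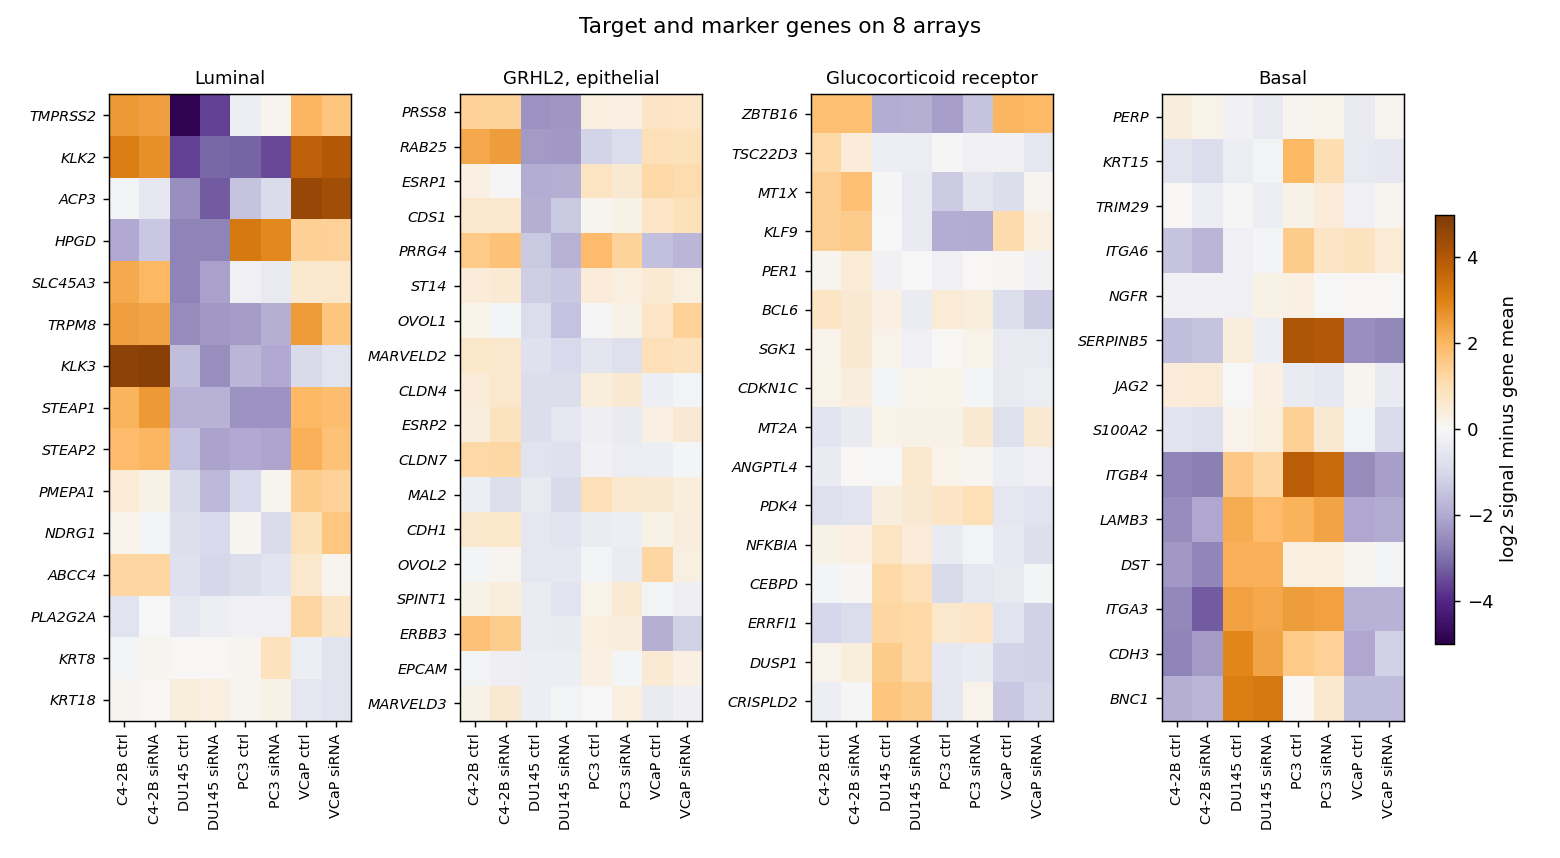
Colour shows the log2 signal minus the gene's mean over 8 arrays for the tested members of 4 lists (rows) on each array (columns, control and DNAPK siRNA of each line), sorted by their mean in DU145. Most epithelial genes tied to GRHL2 are below their mean in DU145, and the adhesion genes at the foot of the basal list are above theirs in DU145 and PC3.

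The genes whose profile over the 8 arrays lay nearest to each member were found by the root mean square distance of gene-centred log2 values, as a description with no test. GRHL2 was followed most closely by EHF, an epithelial ETS factor gene (0.36), the guanylate cyclase gene GUCY1A1 (0.44) and TMPRSS2 (0.53), where the median gene lay at 2.42. EHF read 9.79 and 9.91 in C4-2B, 9.55 and 9.15 in VCaP, 7.73 and 7.50 in PC3, and 3.17 and 3.27 in DU145. HOXB13 had LCP1, an actin-bundling gene, at 0.59, TXNIP at 0.65 and DSEL at 0.66, where the median gene lay at 2.39. Distances grow with a gene's span and are not compared between members. FOXA1 had CLCN3 at 0.14, NAPA at 0.14 and SYT7 at 0.15, and GATA2 had the kinesin gene KIF5C at 0.24, ZNF814 at 0.27 and the small nucleolar RNA gene SNORD116-21 at 0.32. SPDEF had NFIX at 0.23, PRSS8 at 0.31 and MTARC1 at 0.42. NR3C1 had the ETS factor gene ETS2 at 0.35, DENND5B at 0.36 and DPY19L1 at 0.44. SOX9 had PXDN, a matrix peroxidase gene, at 0.21, BNC2 at 0.32 and SATB1 at 0.33. Each of these profiles rests on 4 lines, 2 arrays each.

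After DNA-PK knockdown, none of the 7 genes passed the test across lines, and nor did any other gene. The limma fit with the line as a block called 0 of 16581 genes (0%), with 1196 (7.21%) at an unadjusted p under 0.05. GATA2 and SOX9 were among these 1196. GATA2 was the single member higher in 4 of 4 lines, as were 11.5% of all genes, and SOX9 the single member lower in 4 of 4, as were 5.9%.

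GATA2 had the most even response. Its difference was 0.41 in DU145, 0.33 in VCaP, 0.30 in C4-2B and 0.28 in PC3, which is 1.33, 1.26, 1.23 and 1.21 times the control signal. The mean was 0.33 ± 0.06 (SD, n = 4 lines), with a 95% limma interval of 0.08 to 0.58 and an adjusted p of 0.688. Leaving out 1 line at a time gave 0.30 to 0.35. VCaP, with 65.0% of PRKDC left, had 0.33 and C4-2B, with 17.4% left, had 0.30, and the relation to knockdown depth was not tested.

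SOX9 had differences of -0.58 in C4-2B, -0.33 in PC3, -0.31 for VCaP and -0.11 for DU145. These are 0.667, 0.793, 0.808 and 0.928 times the control signal. The mean was -0.33 ± 0.20 (SD, n = 4 lines), with a 95% limma interval of -0.62 to -0.05 and an adjusted p of 0.688. Leaving out 1 line at a time gave -0.41 to -0.25.

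NR3C1 had the widest spread. It was lower by 1.42 in VCaP (0.375 times the control signal), by 0.51 in DU145 and by 0.09 in PC3, and higher by 0.68 in C4-2B (1.60 times). It was the 1 member past -1 in VCaP, where 2.43% of genes lay past -1. The mean was -0.33 ± 0.87 (SD, n = 4 lines, limma adjusted p = 0.782). It rested on VCaP, without which it was 0.03. The level in C4-2B, 3.41 in the control, is close to the filter level.

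SPDEF was lower in DU145 by 0.89 and in PC3 by 0.27, and higher in C4-2B by 0.02 and in VCaP by 0.18. The mean was -0.24 ± 0.47 (SD, n = 4 lines, limma adjusted p = 0.756), or -0.02 without DU145. HOXB13 was higher in VCaP by 0.58 and in DU145 by 0.28, and lower in PC3 by 0.43 and in C4-2B by 0.03. Its mean was 0.10 ± 0.43 (adjusted p = 0.890), or -0.06 without VCaP, and the DU145 arrays were both below the filter level.

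FOXA1 and GRHL2 had mean responses near 0. FOXA1 had -0.41 in VCaP, -0.05 in C4-2B, -0.01 in PC3 and 0.00 in DU145, with a mean of -0.12 ± 0.20 (SD, n = 4 lines) and a 95% limma interval of -0.40 to 0.17 (adjusted p = 0.818). GRHL2 had -0.32 in C4-2B, -0.22 in PC3, 0.00 in VCaP and 0.17 in DU145, with a mean of -0.09 ± 0.22 and an interval of -0.39 to 0.20 (adjusted p = 0.864). The mean was -0.02 for FOXA1 without VCaP and -0.02 for GRHL2 without C4-2B.

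**Figure D4:**
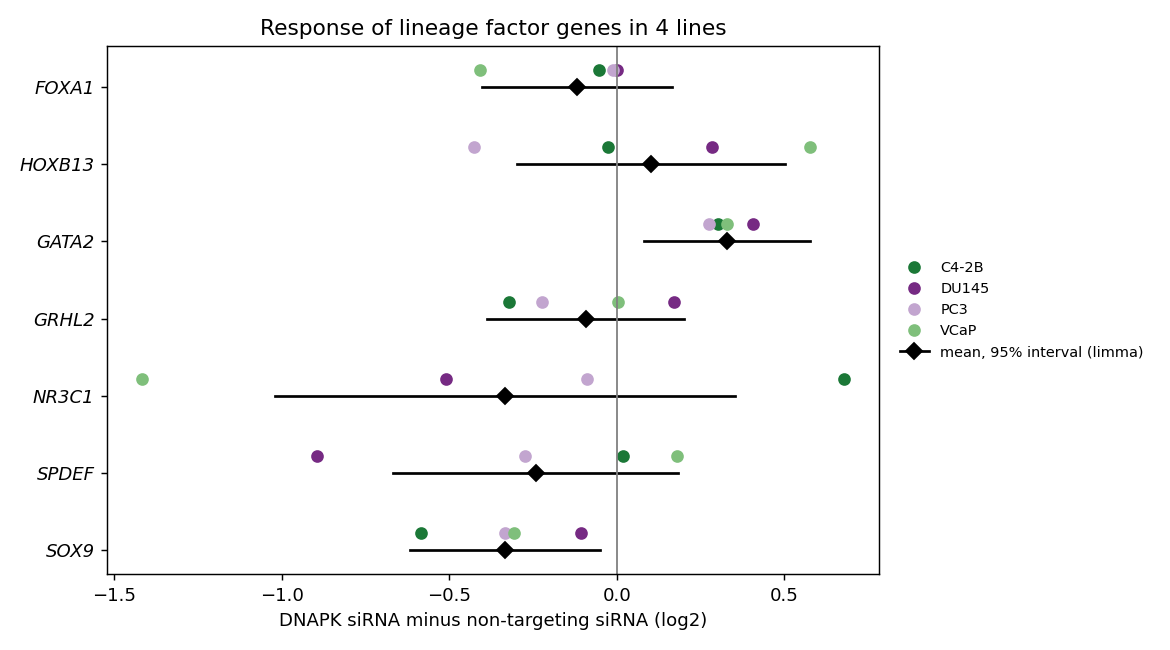
Log2 response to DNAPK siRNA against the control of the same line (horizontal axis) for each gene, with 1 coloured point per line and, below the points, the mean over 4 lines (diamond) with its 95% limma interval. All 4 points of GATA2 lie between 0.28 and 0.41 and all 4 of SOX9 below 0, while those of NR3C1 run from -1.42 to 0.68.

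The responses of C4-2B with VCaP and of DU145 with PC3 were also tested against each other. SPDEF had the lowest p of these genes, with a difference of 0.68 (95% limma interval -0.01 to 1.37, adjusted p = 0.991). The other 6 lay between -0.23 for FOXA1 and 0.35 for HOXB13 (adjusted p of 0.991 to 0.996). The fit called 0 of 16581 genes (0%), with 604 (3.64%) at an unadjusted p under 0.05. GATA2 had -0.03 (interval -0.60 to 0.55).

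Known targets of the factors showed no called response either. Over the 18 epithelial genes tied to GRHL2 the median of the mean responses was -0.00155, with 9 above 0 and 9 below. Over the 15 luminal genes it was -0.00415 (7 and 8), over the 16 glucocorticoid receptor targets 0.08 (10 and 6), over the 14 basal genes -0.10 (5 and 9) and over the 9 secretory genes -0.05 (3 and 6), against 0.03 over all genes. None of these genes passed in any list (0% of all genes passed). The members with the largest mean in their list included MAL2, a membrane traffic gene (-0.38, lower in 4 of 4 lines), and MT2A, a metallothionein gene (0.49, or 0.21 without VCaP, which had 1.35). BCL6, a transcriptional repressor gene, had -0.35 and was lower in 4 of 4 lines. TMPRSS2 had 0.30, or -0.00201 without DU145, and MUC5B had -0.30, or -0.05 without PC3.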

How the data were processed

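Total RNA (400 ng) was labelled with an Affymetrix WT Plus kit, per the labels' protocols. The authors deposited log2 signals for 53617 probe sets, made with oligo and RMA, per the submitters' processing notes. RMA makes the distributions of arrays alike, so a change shared by most genes is not seen. No scanner files were used, so no detection call, scan batch or depth of signal over background was examined, and the number of arrays limits the precision. Of the probe sets, 23558 had 1 symbol, 2155 had several and 27904 were unnamed here. Symbols were updated by Entrez identifier (22271 matched) with RefSeq genes of GRCh38.p14. The array's own genome build: not given in the sources used here. The probe set with the highest mean stood for a gene (22109), and genes with a mean above the 25th percentile (2.52) were tested (16581).

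All tests were 2-sided limma fits (lmFit and eBayes, version 3.58.1, R 4.3.3) with Benjamini-Hochberg adjustment over all genes tested and a threshold of 0.05. In simulated data with a log2 change of 2 in 200 genes, the fits recovered 97% to 100% of these. That change was the same in every line that was given it. For the standing level no other spread between lines was put in. Power in these data was not measured. Arrays were paired through the shared cell line. After subtraction of treatment means, the correlation across genes was 0.864 to 0.918 within lines and at most 0.0120 between them. Each condition was 1 culture, so the p-values rest on the spread between lines or arrays. The smallest p of an exact sign-flip test over 4 pairs is 0.125. Genes named are the 7 members, PRKDC, the 3 genes per list with the largest contrast, and the 3 nearest profiles per member. Others were named after their values were seen. Members and lists were chosen with earlier results of these data known. Listed genes without a value were not analysed here. Alternatives were other filters, scalings, probe set choices and variance priors, no line block, other arrays for the standing level, and leaving out lines.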

Additional observations from a re-analysis of the deposited data

Results flagged for a closer look

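HOXB13 in DU145 was far from the other lines on both treatments, at 2.07 in the control and 2.36 after knockdown. The response of FOXA1 in VCaP, -0.41, was far from those of the other 3 lines, and lay at the 67.7th percentile of absolute responses over all genes in VCaP, where responses spread more widely (SD 0.46 against 0.29 to 0.33 in the other lines). These 3 of 21 sets of 4 values had an end value past the 95% limit of Dixon's gap test. Chance passes that limit in about 1 of 20 independent sets. The sets here are not independent, since levels and responses share arrays, and both HOXB13 entries are the low level in DU145. The 3 of 21 are thus not set against chance. SPDEF was higher after knockdown in C4-2B and VCaP and lower in DU145 and PC3, a difference of 0.68 that did not pass its test (limma, adjusted p = 0.991). It was 0.37 without DU145 and 0.99 without PC3.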

How the results depend on the processing

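The fits over lines called 0 genes in the siRNA response, and in the response difference between pairs of lines, under all alternatives run, leaving out lines included. The standing level gave 70 calls when genes at or below the median signal were left out (KLK2, TRPM8, ZBTB16 and ITGA3 passed there, and no member), 4 with the DNAPK siRNA arrays, and 0 otherwise. With no replicate block for the cell line the siRNA response gave 0 calls and 61 genes at an unadjusted p under 0.05, against 1196. Leaving out lines turned the sign of several values, none of which had passed a test. The siRNA response ran from -0.67 (without C4-2B) to 0.0258 (without VCaP) for NR3C1, from -0.0557 (without VCaP) to 0.28 (without PC3) for HOXB13, and from -0.00201 (without DU145) to 0.52 (without VCaP) for TMPRSS2. The standing difference ran from -0.56 without DU145 to 5.37 without PC3 for HOXB13, from -2.48 to 0.91 for SOX9 and from -6.24 to 0.51 for TFF1. In the response difference between pairs, GATA2 had 0.00482 with cyclic loess, 0.00433 with median centring and -0.0919 (without PC3) to 0.0391 (without DU145) with lines left out. There GRHL2 ran from -0.33 to 0.0639, HOXB13 from -0.00851 to 0.70 and NR3C1 from -1.12 to 0.98. Median centring turned HOXB13 between PC3 and VCaP (-0.0635) and SOX9 between C4-2B and DU145 (0.0367). The causes were not tested. Median centring moved the median standing difference of all genes to 0.13.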

Other observations

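Of 18 partner and cofactor genes tested, 7 passed between C4-2B and DU145, where 35.1% of all genes did. The VCaP control was the highest for 10 of the 18 (28.2% of all genes). DU145 was lower than VCaP for 9 and higher for 2 (19.7% and 21.1%). PC3 was lower than VCaP for 7 and higher for 4 (19.2% and 21.1%), and C4-2B lower for 5 and higher for 2 (17% and 18.3%). Single relatives and partners with wide spans between lines are given here, named after their values were seen. ELF5, an ETS factor gene of secretory epithelium, had control levels of 7.09 in C4-2B and 5.37 in VCaP, but 2.28 in DU145 and 2.10 in PC3. MEIS2, a homeobox partner of HOX factors, had the opposite pattern, at 1.90 in C4-2B and 1.98 in VCaP against 5.25 in DU145 and 5.04 in PC3 (difference -3.21, limma adjusted p = 0.0802). PGR, the progesterone receptor gene, read 5.37 in the VCaP control and at most 2.04 on the arrays of the other lines. NR3C2, the mineralocorticoid receptor gene, read 6.27 in VCaP, 5.41 in PC3, 4.47 in C4-2B and 2.47 in DU145.

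All 8 mesenchymal genes tested had a lower mean in the C4-2B and VCaP controls than in those of DU145 and PC3. The median difference was -1.73, against 0.02 over all genes, and 0 of 8 passed the fit over 4 lines. Of the 8, 3 were lower in both C4-2B and VCaP controls than in DU145 and PC3 (19.7% of all genes). PC3 was higher than VCaP for 7 and lower for 0 (21.1% and 19.2%). In C4-2B minus DU145, 4 were above 0 and 4 below, and 1 passed as higher and 2 as lower (17.4% and 17.8%). CDH2 (N-cadherin) read 7.77 in the PC3 control and at most 2.25 in the other controls. VIM (vimentin) read 8.19 in DU145 and 7.82 in PC3, against at most 4.29 in the controls of C4-2B and VCaP. ZEB1, a transcription factor gene that promotes EMT, read 5.30 in DU145, 4.72 in PC3 and at most 2.72 in those controls. FN1 (fibronectin) and SNAI2, another transcription factor gene that promotes EMT, read 9.09 and 7.41 in the C4-2B control against 5.81 and 7.05 in DU145. FN1 had a response of -0.64 ± 0.15 (SD, n = 4 lines, lower in 4 of 4), which did not pass (limma, adjusted p = 0.688).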
